A study of Mus musculus with 10 samples.

Results

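The comparison described here is that of LPA (lysophosphatidic acid) with vehicle in MYO5B-knockout mice, in RNA of jejunal epithelial cells. It holds 7 of the 10 libraries of the series, 3 from LPA-treated and 4 from vehicle-treated mice. Its genes are those of the 35275 listed that averaged 0.1 FPKM or more in the series, 15729 in all. FPKM are fragments counted on a gene, scaled to its length in kilobases and to the total of its library. All 10 mice were adult C57BL/6 mice of the genotype VillinCreERT2;MYO5Bflox/flox, in which a tamoxifen-activated Cre recombinase under the villin promoter removes the floxed part of Myo5b from intestinal epithelial cells only. The 7 knockout mice received a single intraperitoneal dose of 2 mg tamoxifen. Vehicle mice 3, 5, 6 and 7 were then injected intraperitoneally for 4 days with albumin in buffered saline, and LPA mice 1, 4 and 5 with LPA at 3 mg/kg. The 3 control mice (2, 4 and 5) had the same genotype, received corn oil in place of tamoxifen and are used here for their levels only. For LPA mouse 1 the label is at odds with itself. Its title and the injection it names put it in the LPA group, as it is treated here, while another line of its description calls it vehicle-treated. For a part of the gene lists the median is therefore also given without it.

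LPA is a small phospholipid that acts on cells through G protein-coupled receptors, named LPAR1 to LPAR6, and is made outside cells mainly by autotaxin, the product of Enpp2. MYO5B is a motor protein that carries vesicles of recycling endosomes to the apical membrane of enterocytes. Its loss in people causes microvillus inclusion disease, a severe diarrhea of newborns in which transporters fail to reach the brush border. The jejunal epithelium renews itself from stem cells in the crypt, which give rise to absorptive enterocytes and to the secretory goblet, Paneth, enteroendocrine and tuft cells. The study asked how systemic LPA bears on these lineages and on the knockout epithelium.

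The libraries held between 10949420 and 24470409 reads on genes. Vehicle mouse 3 and control mouse 2 stood apart, with 12601 and 12242 genes detected against 17309 to 18267 in the other 8 libraries. In these 2 libraries 18.0% and 17.4% of reads fell on mitochondrial genes, against 1.98% to 3.498% in the others. The labels call all mice male, but vehicle mouse 3 and LPA mouse 1 held Xist, the RNA of the inactive X chromosome, at 8.41 and 15.1 FPKM and had 0 reads on the Y-linked genes Kdm5d, Uty, Ddx3y and Eif2s3y. Results were therefore also computed without control mouse 2, vehicle mouse 3 and LPA mouse 1, a choice made after seeing the data. These libraries, with 2 LPA and 3 vehicle mice, are called the reduced set below. The epithelial label held in every library, with keratin Krt8 between 3182 and 4592 FPKM in the 7 knockout libraries. Of 10 pancreatic genes 0 reached the filter, whereas genes of immune and stromal cells were detected, as given below.

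Myo5b itself (chromosome 18, 74440936 to 74771493, GRCm38) was at 10.5, 12.2, 13.1 and 13.6 FPKM in the vehicle libraries and 11.7, 11.4 and 10.3 FPKM in the LPA libraries. Here and below, values are given in the order of vehicle mice 3, 5, 6, 7 and LPA mice 1, 4, 5. Control mice 2, 4 and 5 held 16.5, 32.0 and 26.1 FPKM. LPA and vehicle libraries thus overlapped, with a log2 difference of -0.15 (SE 0.28, limma's adjusted p = 1), and all 7 lay below the control libraries. These values count reads over the whole gene, including parts that are not deleted.

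By limma's adjusted p under 0.05, 0 of the 15729 genes differed between LPA and vehicle mice (0%), with a smallest adjusted p of 0.83. At an unadjusted p under 0.05 there were 459 genes, 396 of them higher and 63 lower with LPA. edgeR on reads recovered from the FPKM called 0 of 13594 genes, with 324 at an unadjusted p under 0.05. DESeq2 on the same reads called 5 of 22286 (0.0224%), all higher with LPA. For 560 genes every LPA library lay above every vehicle library (3.56%), and for 95 every one lay below (0.604%). After quantile normalization these counts were 396 and 317. Without LPA mouse 1 alone limma called 0 genes, with a smallest adjusted p of 0.182. In the reduced set limma called 197 genes, 106 of them higher (0.674%) and 91 lower (0.579%). With control mouse 2 kept, the same 2 LPA and 3 vehicle libraries gave the same differences and 0 calls (smallest adjusted p by limma 0.0724), so that all 197 calls also depend on leaving out a control library, and what is said below to pass in the reduced set passed on that condition. Since all 10 libraries together gave no call, differences are reported as values on the scale of log2(FPKM + 0.1), which understates those of low genes. limma's adjusted p was 0.83 for Lyz2 and 1 for every other gene named. The median difference over all genes tested was 0.11, and -0.02 after quantile normalization, and list medians below are to be read against it. It was 0.03 without LPA mouse 1 and -0.18 in the reduced set. Of all genes tested 60.7% had a positive difference and 2.92% an unadjusted p under 0.05, and counts of list members are to be read against these shares and those without overlap.

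The genes with the smallest p-values included several of cells other than epithelium. Lyz2, the lysozyme of macrophages and other myeloid cells, was at 0.938, 0.916, 1.08 and 2.24 FPKM with vehicle and 5.75, 15.3 and 11.2 FPKM with LPA, a log2 difference of 2.94 (SE 0.45). Lyz2 is close in sequence to the Paneth cell gene Lyz1, whose difference, given below, had the opposite sign. Ighg2b, an immunoglobulin heavy chain of plasma cells, was at 0, 0.0574, 0.0485 and 0.219 FPKM with vehicle and 13.0, 2.35 and 2.38 FPKM with LPA, a log2 difference of 4.70 (SE 0.87). Control mice held 4.36, 4.26 and 5.59 FPKM of Lyz2 and 0.807, 0.772 and 6.45 FPKM of Ighg2b, so that all vehicle libraries lay below all those of both other groups. These genes were 2 of the 5 that DESeq2 called. The other 3 were named after their values were seen. Col6a1, a collagen chain of stromal cells, was at 0.0446, 0.0566, 0.107 and 0.0433 FPKM with vehicle and 0.359, 1.65 and 1.78 FPKM with LPA. Mmp10, a secreted matrix metalloproteinase, is described with the injury genes. The predicted gene Gm15920 rested on LPA mouse 4, with 1.02, 97.9 and 4.11 FPKM in the LPA libraries against 0.227, 0.866, 1.34 and 0.882 FPKM with vehicle, and it overlaps Rabgef1 on the same strand.

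**Figure D1:**
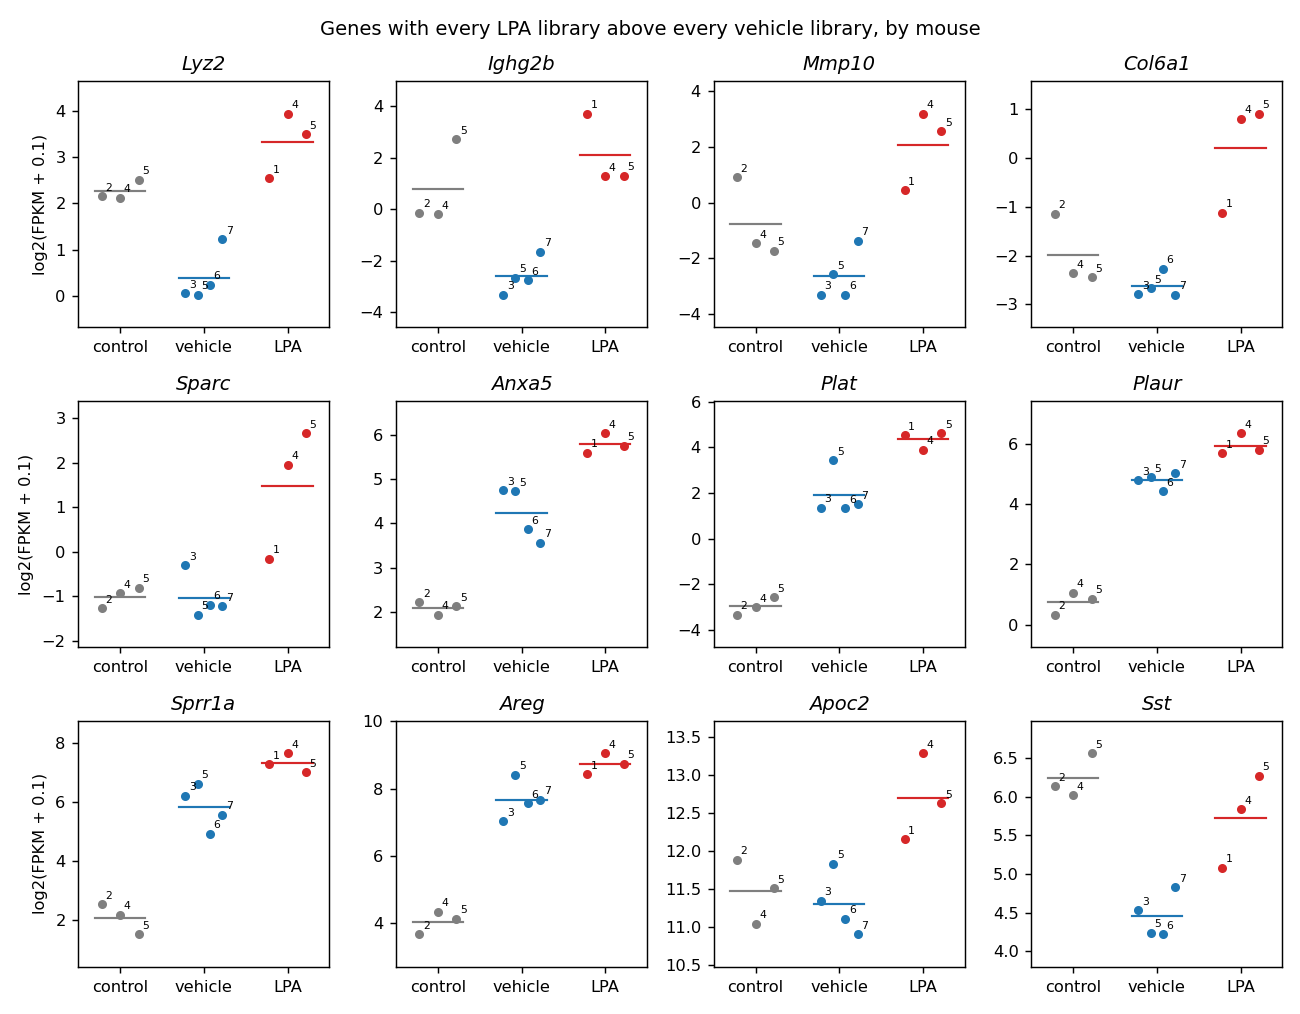
Levels of 12 genes as log2(FPKM + 0.1) on the vertical axis, with 1 numbered point for each mouse in the control (n = 3), vehicle (n = 4) and LPA (n = 3) groups; horizontal lines are group means. In each of the 12 genes the lowest LPA library lies above the highest vehicle library, most closely in Areg (342 against 341 FPKM) and Sparc (0.7995 against 0.715 FPKM).

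All 9 tested genes of B and plasma cells had a positive difference, with a median of 1.93 (2.46 in the reduced set), and 4 of the 9 did not overlap between groups, against the 3.56% of all genes. Summed over the list, the level was 1422, 77.7, 174 and 197 FPKM with vehicle and 305, 1315 and 2023 FPKM with LPA. Vehicle mouse 3 lay within the LPA range, and vehicle mice 5, 6 and 7 lay below it. Igha, the heavy chain of IgA and the most abundant member on average, was at 1021, 20.9, 54.9 and 64.7 FPKM against 97.3, 563 and 1129 FPKM. Igkc, the kappa light chain, was at 346, 49.7, 109 and 117 FPKM with vehicle and 185, 673 and 803 FPKM with LPA. Igj, the joining chain of IgA and IgM, was at 49.96, 4.16, 6.89 and 12.6 FPKM against 10.8, 71.1 and 83.3 FPKM. All 3 passed in the reduced set, with differences of 4.24, 3.10 and 3.41 (limma's adjusted p = 0.042, 0.042 and 0.0407, but adjusted p = 0.351, 0.225 and 0.13 with control mouse 2 kept). In bulk RNA a larger number of cells of a type and more RNA per cell cannot be told apart.

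Genes of myeloid and mast cells were likewise positive in 16 of 16, and 6 did not overlap (3.56% of all genes). These 16 genes had a median of 1.49 (1.23 in the reduced set). Their sum was 58.3, 24.3, 25.6 and 54.6 FPKM with vehicle and 132, 87.3 and 116 FPKM with LPA, so that the groups did not overlap. The members behind this sum differed between LPA mice. In LPA mouse 1 the largest was the mast cell protease Mcpt1 at 67.5 FPKM, which was at 3.99 and 4.31 FPKM in LPA mice 4 and 5 and at 4.80, 0.508, 2.95 and 18.2 FPKM with vehicle. C1qa, a complement gene typical of macrophages, was at 29.2, 1.45, 1.55 and 3.07 FPKM with vehicle and 5.15, 17.7 and 48.6 FPKM with LPA. Its partner C1qc was at 7.59, 1.30, 0.692 and 1.55 FPKM against 3.13, 9.18 and 9.86 FPKM. In both genes vehicle mouse 3 lay within the LPA range, and both passed in the reduced set (limma's adjusted p = 0.0456 and 0.0424, but adjusted p = 0.37 and 0.324 with control mouse 2 kept). Cd14, a receptor for bacterial lipopolysaccharide, ranged from 1.86 to 11.4 FPKM with vehicle and from 9.12 to 12.5 FPKM with LPA.

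Of 16 genes of stromal, endothelial, muscle and glial cells 13 were positive, with a median of 1.19, which was 1.74 without LPA mouse 1 and 2.16 in the reduced set. The summed level was 11.6, 10.4, 9.31 and 13.8 FPKM with vehicle and 8.80, 25.9 and 31.6 FPKM with LPA, so that LPA mouse 1 was below every vehicle library and LPA mice 4 and 5 above. LPA mice 4 and 5 were also the highest of the 7 libraries in single members. Col1a2, a fibrillar collagen chain, was at 0.222, 0.0434, 0.0549 and 0.0746 FPKM with vehicle and 0.145, 0.854 and 0.80 FPKM with LPA. Pdgfra, a receptor of fibroblasts, was at 0.195, 0.0265, 0.0223 and 0.0540 FPKM against 0.112, 0.616 and 0.468 FPKM. In the reduced set both passed, with differences of 2.56 and 2.26 (limma's adjusted p = 0.0407 and 0.0407, but adjusted p = 0.419 and 0.425 with control mouse 2 kept). Sparc, a matrix glycoprotein outside the list, was at 0.715, 0.277, 0.340 and 0.328 FPKM with vehicle and 0.7995, 3.79 and 6.23 FPKM with LPA, without overlap. The most abundant members of the list overlapped. Tagln, of smooth muscle, ranged from 2.59 to 3.95 FPKM with vehicle and from 2.92 to 3.64 FPKM with LPA, Lyve1, of lymphatic vessels, from 1.19 to 6.75 and 0.576 to 2.45 FPKM, and S100b, of glia, from 0.149 to 3.79 and 0.991 to 7.17 FPKM. Tagln and S100b each overlap a more highly counted gene on the other strand, from whose reads theirs cannot be told apart.

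Other lists of blood-derived cells, and the list of MHC class II genes, did not all lie this way. The 4 globin genes had a median of 1.03 (1.86 without LPA mouse 1, 2.17 in the reduced set) and summed to 12.7, 3.76, 2.53 and 3.75 FPKM with vehicle and 2.97, 12.6 and 20.1 FPKM with LPA, nearly all of it from Hba-a1, Hba-a2 and Hbb-bs. Genes of T and NK cells had a median of -0.21 (-0.40 without LPA mouse 1, -0.68 in the reduced set), with 8 of 19 positive, and a sum of 62.9, 20.6, 84.9 and 201 FPKM with vehicle against 59.0, 61.6 and 32.7 FPKM with LPA. Their most abundant members were Gzma, a granzyme of cytotoxic lymphocytes, the chemokine gene Ccl5 and Cd7. Gzma was at 44.0, 7.20, 34.9 and 91.4 FPKM with vehicle and 22.6, 27.8 and 18.4 FPKM with LPA, so that all LPA libraries lay within the vehicle range. Ccl5 was at 6.84, 3.56, 21.3 and 51.8 FPKM against 14.0, 13.3 and 7.30 FPKM. MHC class II genes, which present antigen, had a median of -0.39 over 7 (-0.79 without LPA mouse 1, -0.93 in the reduced set), with Cd74 at 105, 34.7, 227 and 817 FPKM against 191, 99.2 and 135 FPKM and H2-Ab1 and H2-Aa also among the most abundant. The part of non-epithelial RNA in the other differences described here was not tested.

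**Figure D2:**
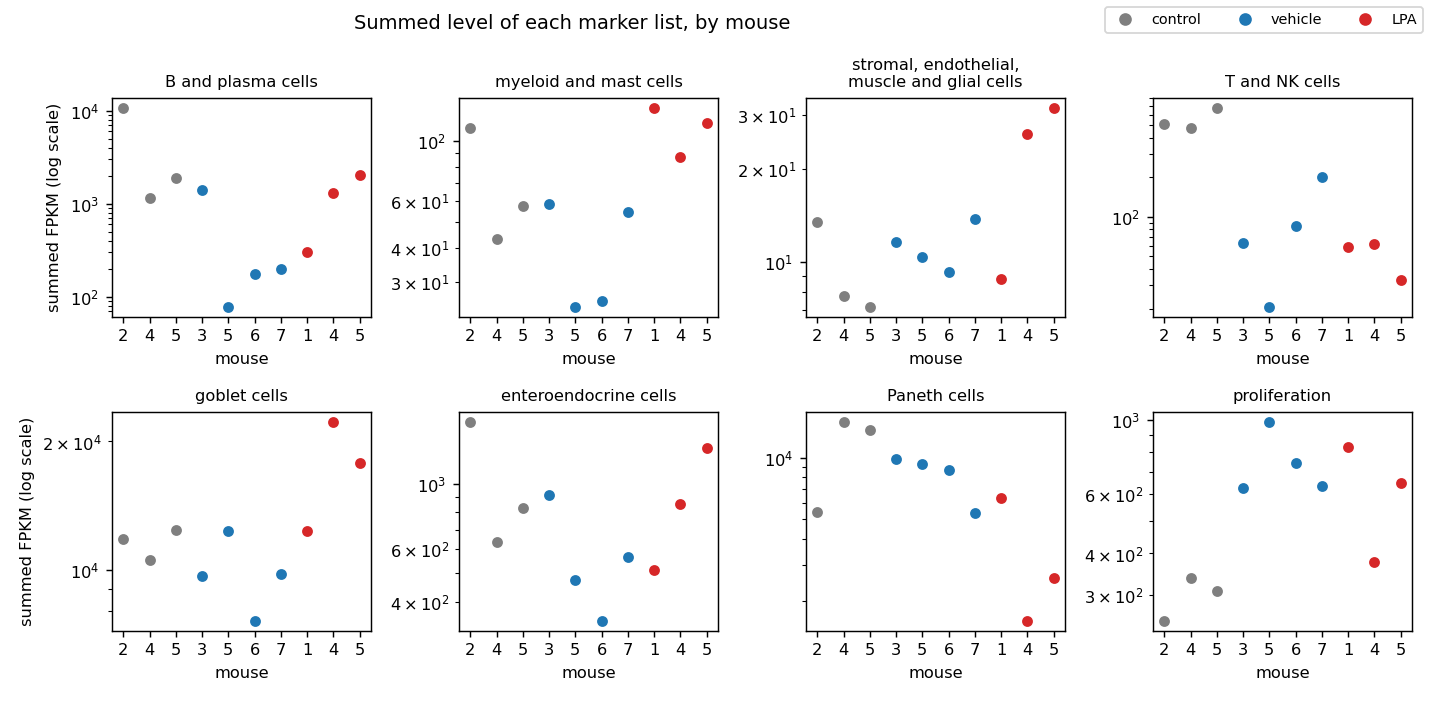
Summed FPKM of 8 marker lists (log scale) for each mouse, numbered on the horizontal axis within the control, vehicle and LPA groups, with 1 point per library. The myeloid and mast cell sum is higher in all 3 LPA libraries than in all 4 vehicle libraries, while the Paneth cell sum of LPA mice 4 and 5 (1597 and 2590 FPKM) lies below every other library and that of LPA mouse 1 (6366 FPKM) within the vehicle range.

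Genes known from regenerating or fetal-like intestinal epithelium after injury were for the most part higher with LPA. Of 19 such genes 18 were positive, with a median of 1.12 (1.29 in the reduced set), 10 had an unadjusted p under 0.05 (2.92% of all genes), and 4 did not overlap (3.56% of all genes). Mmp10 was at 0, 0.0674, 0 and 0.284 FPKM with vehicle and 1.26, 9.11 and 5.85 FPKM with LPA, a log2 difference of 4.72 (SE 0.88). Control mice held 1.79, 0.264 and 0.199 FPKM, so that control mouse 2 lay above LPA mouse 1 and above all vehicle libraries. Mmp10 was called by DESeq2 and passed in the reduced set (limma's adjusted p = 0.0348, but adjusted p = 0.203 with control mouse 2 kept). Plaur, the receptor of the plasminogen activator urokinase, was at 27.6, 29.6, 21.5 and 32.4 FPKM with vehicle and 51.4, 81.1 and 55.5 FPKM with LPA, a log2 difference of 1.16 (SE 0.30). Control mice held 1.17, 2.00 and 1.72 FPKM, so that Plaur was lowest in controls and highest with LPA. Cldn4, a claudin of tight junctions, was at 187, 277, 136 and 165 FPKM with vehicle and 449, 517 and 392 FPKM with LPA, a log2 difference of 1.28, against 26.9, 123 and 131 FPKM in controls. Il1rn, the interleukin-1 receptor antagonist, was at 1.66, 1.08, 0.119 and 0.502 FPKM with vehicle and 2.43, 4.51 and 2.18 FPKM with LPA.

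In other members single libraries bridged the groups. Gja1, which encodes a gap junction connexin, was at 0, 0.0374, 0.0946 and 0.157 FPKM with vehicle and 0.132, 1.38 and 1.47 FPKM with LPA. LPA mouse 1 lay within the vehicle range, and the reduced set passed with 3.00 (limma's adjusted p = 0.0394, but adjusted p = 0.148 with control mouse 2 kept). The calcium-binding protein gene S100a6 was at 3722, 1209, 618 and 731 FPKM with vehicle and 1227, 2514 and 2845 FPKM with LPA. Anxa2, an annexin, was at 1724, 959, 877 and 1085 FPKM against 1179, 1629 and 1463 FPKM. In both, vehicle mouse 3 was the highest of the 7 libraries.

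Further genes had the same order of the 3 groups as Plaur and lie outside the list. Plat, which encodes tissue plasminogen activator, was at 2.45, 10.8, 2.44 and 2.77 FPKM with vehicle and 23.0, 14.9 and 24.4 FPKM with LPA, a log2 difference of 2.43 (SE 0.56), against 0, 0.0257 and 0.0677 FPKM in controls. Anxa5, a phospholipid-binding annexin, was at 26.8, 26.3, 14.5 and 11.8 FPKM with vehicle and 48.1, 65.0 and 53.8 FPKM with LPA, a log2 difference of 1.56 (SE 0.34), against 4.59, 3.75 and 4.29 FPKM in controls. Sprr1a, a protein of the cornified envelope that injured epithelia also make, was at 74.7, 99.2, 30.4 and 47.6 FPKM with vehicle and 155, 202 and 129 FPKM with LPA, a log2 difference of 1.47, against 5.73, 4.43 and 2.76 FPKM in controls. In each, all knockout libraries lay above all control libraries and all LPA libraries above all vehicle libraries. Eif4ebp1, a repressor of translation that mTOR phosphorylates, followed this order too, at 102, 167, 96.7 and 94.4 FPKM with vehicle, 209, 249.8 and 234 FPKM with LPA and 18.7, 16.0 and 22.3 FPKM in controls, with a log2 difference of 1.05 (SE 0.27).

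Ligands of the EGF receptor family, which drive epithelial growth and repair, lay in the same direction. Of 10 genes of the family 9 were positive, with a median of 0.85 (0.57 in the reduced set), and 4 did not overlap (3.56% of all genes). Areg, which encodes amphiregulin, was at 130.5, 341, 188 and 204 FPKM with vehicle and 342, 531 and 426 FPKM with LPA, a log2 difference of 1.07 (SE 0.34), against 12.5, 19.9 and 17.3 FPKM in control mice. Ereg, epiregulin, was at 8.74, 12.2, 8.37 and 5.36 FPKM with vehicle and 13.5, 17.9 and 18.1 FPKM with LPA, a log2 difference of 0.96. Nrg1, neuregulin 1, was near the limit of detection, at 0.0434, 0, 0.0233 and 0.0211 FPKM against 0.136, 0.577 and 0.321 FPKM, and passed in the reduced set (difference 2.22, limma's adjusted p = 0.0456, but adjusted p = 0.196 with control mouse 2 kept). The ligand Hbegf overlapped, at 5.16, 6.84, 10.8 and 16.9 FPKM against 12.8, 14.0 and 9.27 FPKM. The receptors overlapped as well, with Erbb3 ranging from 10.6 to 45.1 FPKM with vehicle and from 25.8 to 46.6 FPKM with LPA, and Erbb2 from 17.7 to 23.1 and 15.8 to 21.2 FPKM.

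Target genes of the transcription factor SRF and of the coactivator YAP respond to signals from G protein-coupled receptors and the cytoskeleton. Of 19 genes on a list of such targets that also holds Srf and Tead1, 17 were positive, with a median of 0.71 (0.38 in the reduced set). Cyr61, Ajuba and Tead1 did not overlap, 3 of 19 against 3.56% of all genes. Cyr61, a secreted matrix-associated protein, was at 0, 0.601, 0.362 and 0.415 FPKM with vehicle and 0.967, 2.17 and 2.66 FPKM with LPA, and passed in the reduced set (limma's adjusted p = 0.0456, but adjusted p = 0.25 with control mouse 2 kept). The abundant cytoskeletal members overlapped. Tpm1, a tropomyosin, ranged from 32.9 to 124 FPKM with vehicle and from 78.6 to 127 FPKM with LPA, Tpm4 from 11.5 to 61.2 and 33.2 to 69.2 FPKM, and Zyx, zyxin, from 8.42 to 39.7 and 18.3 to 47.0 FPKM. Vehicle mouse 3 was the lowest library in all 3. Immediate early genes were positive in 20 of 22, with a median of 0.42, and Junb, Egr1, Dusp1 and Klf2 did not overlap, 4 of 22 against 3.56% of all genes. Junb, a subunit of the transcription factor AP-1, was at 39.9, 83.7, 85.2 and 100.2 FPKM with vehicle and 100.5, 133 and 116 FPKM with LPA. Jund, another subunit, ranged from 59.8 to 556 FPKM with vehicle and from 108 to 423 FPKM with LPA, and Zfp36, which destabilizes mRNA, from 34.0 to 109 and 67.8 to 106 FPKM.

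**Figure D3:**
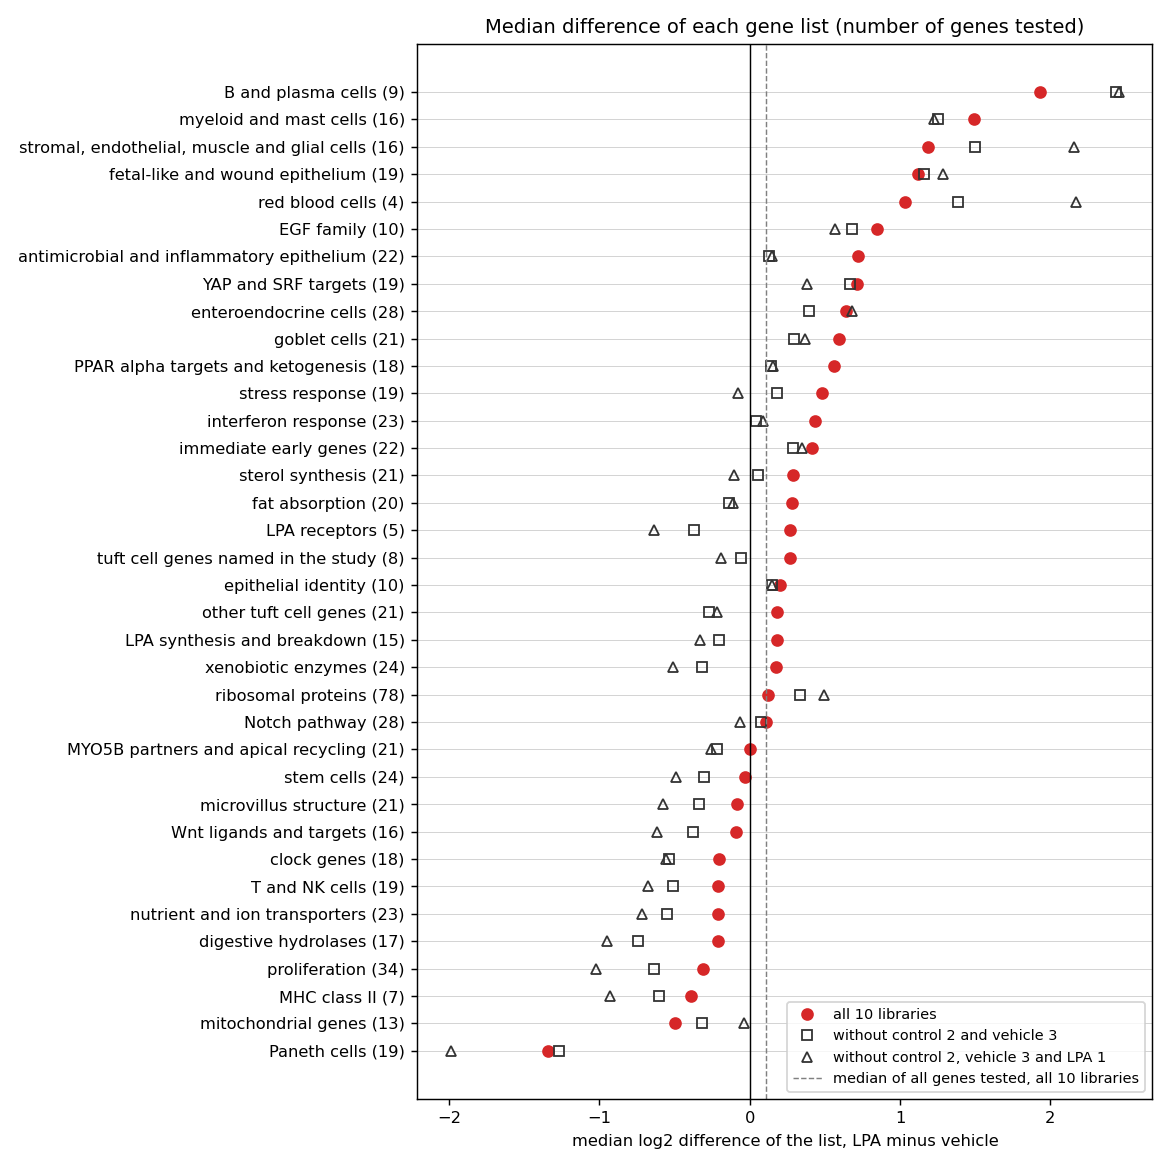
Median log2 difference between LPA and vehicle mice (horizontal axis) for 36 gene lists, with the number of genes tested in brackets: filled circles from all 10 libraries, squares without control 2 and vehicle 3, triangles also without LPA 1; the dashed line is the median of all genes tested. The B and plasma, myeloid, stromal, red blood cell and injury lists lie highest and the Paneth cell list lowest with each of the 3 choices of libraries, while lists such as LPA receptors and fat absorption change side.

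The LPA receptors gave no common direction. Lpar5, the most abundant, was at 2.25, 10.1, 16.9 and 12.7 FPKM with vehicle and 14.2, 4.80 and 0.257 FPKM with LPA, a log2 difference of -1.54 (SE 1.15). LPA mouse 5 lay below every vehicle library, and LPA mice 1 and 4 lay within the vehicle range. Lpar1 was at 1.39, 6.45, 5.17 and 4.87 FPKM with vehicle and 4.64, 5.86 and 5.30 FPKM with LPA, and Lpar3 at 0, 1.16, 4.16 and 2.52 FPKM against 2.59, 2.39 and 0.873 FPKM. Lpar2 and Lpar6 ranged from 0.236 to 0.422 and 0 to 0.881 FPKM with vehicle and from 0.272 to 0.493 and 0.125 to 0.810 FPKM with LPA. Lpar6 lies within a more highly counted gene on the other strand, and their reads cannot be told apart. Lpar4 had 1 read over the 10 libraries and was not tested. The median over the 5 tested receptors was 0.27, but -0.07 after quantile normalization and -0.64 in the reduced set. Enpp2 was at 0.269, 0.188, 0.0288 and 0.117 FPKM with vehicle and 0.0722, 0.357 and 1.13 FPKM with LPA, and is a gene that stromal cells also express. Over 15 genes of LPA synthesis and breakdown the median was 0.18, and -0.33 in the reduced set. Ppap2c, a phosphatase that breaks LPA down, was the most abundant, at 116, 228, 173 and 186 FPKM with vehicle and 211, 217 and 159 FPKM with LPA. The acyltransferases Agpat2 and Agpat1 ranged from 25.9 to 218 and 14.1 to 69.1 FPKM with vehicle and from 65.4 to 188 and 38.1 to 62.9 FPKM with LPA.

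Tuft cells, a chemosensory lineage whose number the study followed after LPA, were represented by 9 genes that it names, of which 8 were tested, 5 of them positive and 3 negative. Trpm5, the cation channel of taste-like signaling, was at 1.51, 1.34, 2.29 and 3.49 FPKM with vehicle and 3.41, 2.72 and 1.78 FPKM with LPA, against 4.85, 4.69 and 3.73 FPKM in control mice. Plcb2, which acts upstream of that channel, did not overlap, at 0, 0.0676, 0.162 and 0.146 FPKM against 0.230, 0.270 and 0.175 FPKM, a log2 difference of 0.83 (SE 0.49). Ptgs1, a cyclooxygenase, was at 0.191, 0.364, 0.546 and 0.417 FPKM with vehicle and 0.314, 1.43 and 1.57 FPKM with LPA, with LPA mouse 1 below 3 of the 4 vehicle libraries. The transcription factor genes of the lineage were scattered. Pou2f3 was at 0, 0.178, 0.206 and 0.170 FPKM with vehicle and 0.235, 0.0443 and 0.230 FPKM with LPA. Spib, which immune cells share, was at 0.675, 0.674, 0.741 and 0.531 FPKM against 1.17, 0.305 and 0.370 FPKM, with LPA mouse 1 the highest and LPA mice 4 and 5 the lowest of the 7 libraries. Gfi1b ranged from 0 to 0.134 FPKM with vehicle and from 0 to 0.0673 FPKM with LPA.

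Dclk1, a kinase much used as a tuft cell marker, was at 0.0582, 0.340, 0.561 and 0.2203 FPKM with vehicle and 0.318, 0.250 and 0.631 FPKM with LPA. Sucnr1, the succinate receptor, ranged from 0 to 0.148 FPKM with vehicle and from 0 to 0.0955 FPKM with LPA, and Chat, below the filter, had 6 reads over the 7 libraries. The median over the 8 tested genes was 0.27, but -0.07 after quantile normalization and -0.19 in the reduced set. A list of 21 other tuft cell genes, with Cd24a, Ptpn18 and Matk the most abundant, had a median of 0.18, with 14 positive, close to the 60.7% of all genes, and 0 without overlap, -0.05 after quantile normalization and -0.22 in the reduced set. 1 read stands for between 0.0409 and 0.0913 FPKM where a gene is 1 kb long, so that several of these genes rest on few reads. Trpm5 overlaps a more highly counted gene on the other strand, and reads of the pair cannot be told apart.

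Paneth cells, which secrete antimicrobial peptides at the crypt base, stood on the other side. Of 19 Paneth cell genes 16 were negative, with a median of -1.34 (-1.50 after quantile normalization, -1.78 without LPA mouse 1 and -1.99 in the reduced set), 10 had an unadjusted p under 0.05 (2.92% of all genes), and 1 did not overlap (0.604%). Summed over the list, the level was 9882, 9322, 8705 and 5378 FPKM with vehicle and 6366, 1597 and 2590.3 FPKM with LPA. LPA mouse 4 lay below every vehicle library in 16 of the 19 genes, LPA mouse 5 in 13 and LPA mouse 1 in 1. Over all 15729 genes tested these counts were 1832, 1175 and 713, so that LPA mouse 1 was near its share of all genes. The alpha-defensin gene Defa26 was at 56.5, 64.7, 62.6 and 35.2 FPKM with vehicle and 33.9, 8.39 and 6.86 FPKM with LPA, a log2 difference of -2.08 (SE 0.60). Defa24, the most abundant, was at 4037, 3624, 3598 and 2137 FPKM with vehicle and 2358, 667 and 1352 FPKM with LPA, a log2 difference of -1.34 (SE 0.54). Gm15284, of the same family, was at 2572, 1980.2, 2241 and 1250.1 FPKM against 1423, 339.7 and 257 FPKM, a log2 difference of -1.96 (SE 0.65). In Defa24 and Gm15284 LPA mouse 1 lay within the vehicle range and LPA mice 4 and 5 below it. Defensin genes are close copies of each other, and their reads may have been shared or split in the counting.

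Paneth cell genes that are not defensins were divided. Some were lower in LPA mice 4 and 5. Lyz1, the Paneth cell lysozyme, was at 344, 1161, 943 and 597 FPKM with vehicle and 708, 158 and 152 FPKM with LPA, a log2 difference of -1.42 (SE 0.71). Ang4, an angiogenin with antimicrobial activity, was at 64.8, 153, 153 and 78.2 FPKM with vehicle and 112, 12.9 and 17.6 FPKM with LPA. Mptx2, a mucosal pentraxin, was at 128, 275, 232 and 158 FPKM against 209.6, 33.7 and 14.7 FPKM. In all 3 genes LPA mouse 1 was close to the vehicle libraries and LPA mice 4 and 5 were the lowest of the 7. In the reduced set 7 Paneth cell genes passed, all lower, against the 0.579% of all genes. They were Lyz1, Ang4, Mptx2, Defa26, Gm15284, Defa3 and Clps, a colipase gene, with differences of -2.48, -3.02, -3.27, -2.77, -2.58, -2.43 and -2.40. With control mouse 2 kept, limma's adjusted p was 0.196 to 0.425 in these 7 genes, and 0 passed. The defensin pseudogene Defa-ps6, outside the list, was at 82.3, 91.1, 41.6 and 25.3 FPKM with vehicle and 23.2, 4.92 and 5.59 FPKM with LPA, a log2 difference of -2.61. Itln1 and Habp2, also on the list, again had LPA mice 4 and 5 below every vehicle library and LPA mouse 1 within the vehicle range. Itln1 was at 500, 273, 323 and 206 FPKM with vehicle and 253, 56.4 and 159 FPKM with LPA. The members named next overlapped and did not show this pattern. Nupr1, a stress-induced regulator of transcription, was at 3.69, 7.25, 3.92 and 5.36 FPKM with vehicle and 7.23, 13.2 and 13.9 FPKM with LPA, and Mptx1, a pentraxin like Mptx2, at 2.40, 0.290, 0.122 and 0 FPKM against 2.40, 1.45 and 0.657 FPKM, so that both had a positive difference. Pla2g2a, an antimicrobial phospholipase, was at 8.34, 39.9, 20.1 and 20.5 FPKM against 21.4, 8.95 and 37.3 FPKM. Mmp7, the protease that activates defensins, was at 39.1, 63.0, 41.7 and 40.5 FPKM with vehicle and 40.2, 31.0 and 55.0 FPKM with LPA, and Wnt3, a signal from Paneth to stem cells, was at 0.445, 0.264, 0.430 and 0.216 FPKM against 0.359, 0.132 and 0.561 FPKM.

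**Figure D4:**
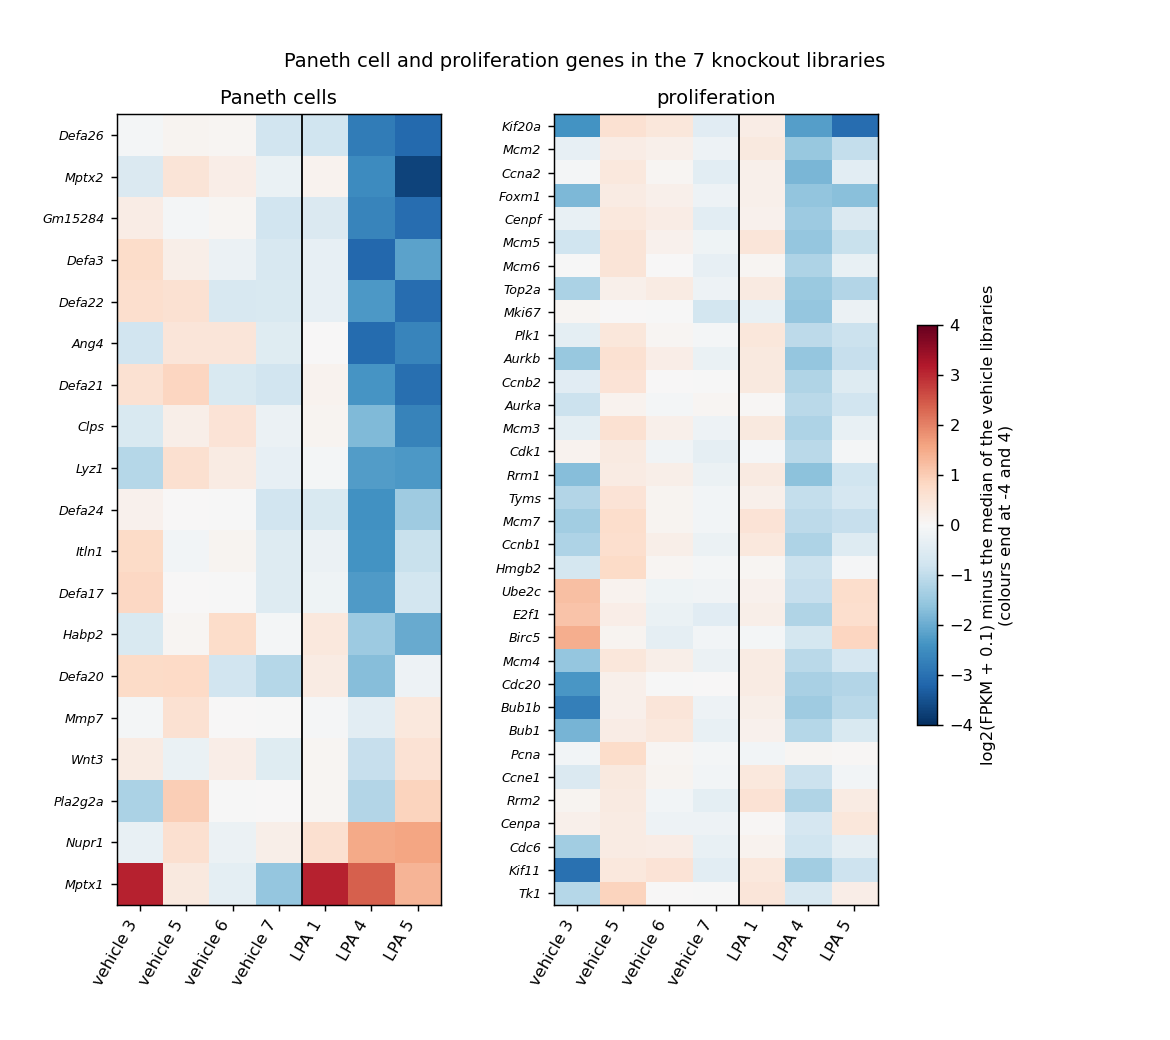
Each row is a gene of the Paneth cell list (left, 19 genes) or the proliferation list (right, 34 genes) and each column a vehicle or LPA library; colour gives log2(FPKM + 0.1) minus the median of the 4 vehicle libraries of that gene. LPA mice 4 and 5 are blue, that is lower, in most Paneth cell rows, LPA mouse 1 resembles the vehicle libraries, and vehicle mouse 3 is itself low in part of the proliferation rows.

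Proliferation genes had smaller differences of the same sign. Of 34 genes 32 were negative, with a median of -0.31 (-0.72 without LPA mouse 1, -1.02 in the reduced set), but 0 had an unadjusted p under 0.05 over all libraries and 0 lacked overlap. LPA mouse 4 lay below every vehicle library in 20 of the 34 genes, LPA mouse 5 in 7 and LPA mouse 1 in 1. Over all 15729 genes tested these counts were 1832, 1175 and 713. LPA mouse 1 lay above every vehicle library in 7 of the 34, near its share of all genes (3169 of 15729). Top2a, the DNA topoisomerase of dividing cells, was at 10.4, 28.7, 31.3 and 21.9 FPKM with vehicle and 31.9, 8.84 and 11.1 FPKM with LPA. Cdc20, an activator of the anaphase-promoting complex, was at 7.64, 44.2, 38.1 and 39.0 FPKM against 48.0, 15.5 and 17.0 FPKM. Kif20a, a mitotic kinesin, was at 0.512, 4.85, 4.36 and 2.25 FPKM against 3.92, 0.5995 and 0.295 FPKM. Each showed low values in LPA mice 4 and 5 and also in vehicle mouse 3. Cdc20 and Kif20a each overlap a more highly counted gene on the other strand, from whose reads theirs cannot be told apart. The 3 genes passed in the reduced set, with differences of -1.43, -1.31 and -2.83 (limma's adjusted p = 0.0485, 0.0348 and 0.0483, but adjusted p = 0.233, 0.454 and 0.372 with control mouse 2 kept). The most abundant members overlapped, with Pcna, the sliding clamp of DNA replication, at 78.8, 141, 91.0 and 80.4 FPKM with vehicle and 78.4, 89.8 and 87.7 FPKM with LPA. Hmgb2 and Ube2c ranged from 43.8 to 121 and 39.4 to 103 FPKM with vehicle and from 39.2 to 74.4 and 23.5 to 72.4 FPKM with LPA.

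Of 54 histone genes tested, counted after their values were seen and on no list, 40 were negative and 14 positive, with a median of -0.61. Without overlap 4 were lower (0.604% of all genes) and 0 higher (3.56%), and the 4 are those named next. Hist1h1e, a linker histone, was at 5.37, 7.06, 4.45 and 3.20 FPKM with vehicle and 1.69, 2.40 and 1.81 FPKM with LPA, a log2 difference of -1.27 (SE 0.39). Hist1h2ak was at 1.86, 1.48, 1.87 and 1.35 FPKM against 0.520, 0 and 0.764 FPKM, and Hist1h2bk and Hist1h4n had log2 differences of -1.67 and -2.01. Most histone transcripts carry no poly-A tail, and the libraries were made from poly-A RNA.

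Stem cell genes had a median of -0.03 over 24 (-0.49 in the reduced set), with 0 called and 0 without overlap. Olfm4, a marker of stem and progenitor cells, was at 2.45, 64.1, 74.3 and 37.4 FPKM with vehicle and 69.3, 9.30 and 2.24 FPKM with LPA, so that its LPA libraries spanned nearly the whole range. Hopx, a gene of reserve stem cells and of villus cells, was at 29.3, 34.6, 21.7 and 15.4 FPKM against 25.6, 34.9 and 51.9 FPKM, and Prom1 at 13.2, 10.2, 12.0 and 12.0 FPKM against 14.9, 9.53 and 20.1 FPKM. Wnt ligands and targets had a median of -0.09 over 16 (-0.62 in the reduced set). Ccnd1, which encodes cyclin D1, was at 2.49, 10.5, 16.5 and 19.9 FPKM with vehicle and 12.6, 2.04 and 1.59 FPKM with LPA, and passed in the reduced set (difference -3.00, limma's adjusted p = 0.0407, but adjusted p = 0.281 with control mouse 2 kept). The transcription factor Myc ranged from 2.37 to 16.3 FPKM with vehicle and from 6.92 to 13.0 FPKM with LPA, and the receptors Fzd5 and Lgr4 from 5.94 to 17.4 and 6.55 to 18.7 FPKM with vehicle and from 9.19 to 15.6 and 9.10 to 14.4 FPKM with LPA. Notch pathway genes had a median of 0.11 over 28 (-0.06 in the reduced set), the same as all genes tested. Their most abundant members were subunits of the gamma-secretase that cleaves Notch. Psenen was at 96.5, 114, 101 and 126 FPKM with vehicle and 121, 147 and 176 FPKM with LPA, and Aph1a and Ncstn ranged from 38.4 to 45.9 and 10.9 to 50.1 FPKM with vehicle and from 37.9 to 43.8 and 29.7 to 42.8 FPKM with LPA.

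Goblet cell genes, which encode mucus proteins, lay above the median of all genes. Of 21 genes 19 were positive, with a median of 0.60 (0.37 in the reduced set), and Tff3, Fcgbp and Klk1 did not overlap, 3 of 21 against 3.56% of all genes. Tff3, a trefoil factor, was at 1603, 2998, 1694 and 2313 FPKM with vehicle and 3059, 5303 and 4370.1 FPKM with LPA, a log2 difference of 0.99 (SE 0.37), although LPA mouse 1 exceeded vehicle mouse 5 only narrowly. Fcgbp was at 235, 463, 419 and 497 FPKM with vehicle and 548, 673 and 521 FPKM with LPA, a log2 difference of 0.57. Muc2, the gel-forming mucin, was at 202, 426, 292 and 365 FPKM against 415, 619 and 539 FPKM, with LPA mouse 1 just below vehicle mouse 5. Zg16, a lectin of the mucus layer, was at 4519, 5995, 3505 and 4371 FPKM with vehicle and 5864, 12324 and 7841 FPKM with LPA, and Spink4 at 2611, 1289, 812 and 1069 FPKM against 1238, 1794 and 3476 FPKM. LPA mice 4 and 5 lay above all vehicle libraries in Zg16, and in Spink4 vehicle mouse 3 exceeded LPA mouse 4.

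Of 28 enteroendocrine genes 24 were positive, with a median of 0.64 (0.68 in the reduced set), and Isl1, Ghrl and Sst did not overlap, 3 of 28 against 3.56% of all genes. Sst, which encodes the hormone somatostatin, was at 23.0, 18.8, 18.5 and 28.3 FPKM with vehicle and 33.8, 57.1 and 77.1 FPKM with LPA, a log2 difference of 1.27 (SE 0.32). Control mice held 70.3, 64.8 and 94.3 FPKM, so that the LPA libraries lay between the vehicle libraries and controls or overlapped the latter. Cck, cholecystokinin, was at 86.9, 73.1, 51.5 and 96.0 FPKM with vehicle and 82.2, 148 and 192 FPKM with LPA. Sct, secretin, was at 502, 121, 98.9 and 175 FPKM against 155, 302 and 476 FPKM, and the incretin gene Gip at 179, 57.5, 36.4 and 70.4 FPKM against 59.3, 81.4 and 284 FPKM. In both of these hormones vehicle mouse 3 held the highest vehicle level, within or above the LPA range.

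Genes of the brush border of enterocytes had negative list medians with 0 genes without overlap. The median was -0.08 over 21 microvillus genes, of which 11 were negative, -0.21 over 23 transporters, 16 of them negative, and -0.21 over 17 digestive hydrolases, 12 of them negative. After quantile normalization these medians were -0.26, -0.39 and -0.40, and without LPA mouse 1 they were -0.32, -0.40 and -0.44. In the reduced set the medians were -0.58, -0.72 and -0.95, with 0 called. Slc5a1, the sodium-glucose transporter SGLT1, was at 279, 271, 433 and 426 FPKM with vehicle and 295, 228 and 198 FPKM with LPA, a log2 difference of -0.54 (SE 0.32), against 564, 1012 and 957 FPKM in controls. LPA mice 4 and 5 were thus below all vehicle libraries and LPA mouse 1 within their range. Slc9a3, the sodium-hydrogen exchanger NHE3, was at 3.30, 9.15, 26.1 and 11.9 FPKM with vehicle and 21.5, 2.69 and 4.67 FPKM with LPA. The sodium pump subunit Atp1b1 ranged from 287 to 738 FPKM with vehicle and from 473 to 651 FPKM with LPA. Among the enzymes, the aminopeptidase Anpep was at 346, 720.5, 1367 and 1499 FPKM with vehicle and 856, 953 and 384 FPKM with LPA, and the intestinal alkaline phosphatase Alpi at 169.6, 1005, 1081 and 878 FPKM against 1264, 1108 and 274 FPKM. The meprin Mep1b ranged from 53.5 to 359.9 FPKM with vehicle and from 143 to 392 FPKM with LPA. In these 3 enzymes vehicle mouse 3 and LPA mouse 5 were the lowest of their groups. Actb, Actg1 and Slc9a3r1, the most abundant of the microvillus genes, ranged from 2406 to 5261, 949.9 to 1335 and 323 to 835 FPKM with vehicle and from 2604 to 4222, 1139 to 1408 and 218 to 558 FPKM with LPA.

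MYO5B partners and other genes of apical recycling had a median of 0.00 over 21, and -0.25 in the reduced set, with 11 positive and 10 negative. Rab11a, a small GTPase to which MYO5B binds, was at 155, 104, 91.0 and 116 FPKM with vehicle and 105, 155 and 151 FPKM with LPA. Rab25, its close relative, was at 20.9, 107, 91.4 and 111 FPKM against 128, 95.6 and 51.5 FPKM, and Vamp8, a protein of membrane fusion, at 235, 71.9, 55.9 and 83.8 FPKM against 87.3, 146 and 227 FPKM. The groups overlapped in all 3. Of 10 epithelial identity genes, with a median of 0.20, only Krt19 did not overlap, at 1911, 2096, 1229 and 1632 FPKM with vehicle and 2217, 2596 and 2218 FPKM with LPA, a log2 difference of 0.47 (SE 0.30). Krt8 and Krt20 ranged from 3182 to 4366 and 809 to 2098 FPKM with vehicle and from 3459 to 4592 and 1114 to 1892 FPKM with LPA.

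Some genes of fat handling did separate the groups. Of 20 fat absorption genes 3 did not overlap (3.56% of all genes), all higher with LPA, although the list median was 0.28 over all libraries and -0.11 in the reduced set. Fabp1, which binds fatty acids in enterocytes, was at 6929, 7571, 8331 and 6764 FPKM with vehicle and 9269.9, 19387 and 18586 FPKM with LPA, a log2 difference of 1.02 (SE 0.43). Apoc2, an apolipoprotein that activates lipoprotein lipase, was at 2599, 3639.9, 2197 and 1908 FPKM against 4562, 9982 and 6335 FPKM, a log2 difference of 1.40 (SE 0.41). Plin2, a coat protein of lipid droplets, was at 208, 129, 59.8 and 55.0 FPKM against 222, 240.4 and 304 FPKM, a log2 difference of 1.39. Apoa1, the main protein of high-density lipoprotein, overlapped, at 4659.5, 4947, 5885 and 8724 FPKM against 5614, 11709 and 5429 FPKM.

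Among PPAR alpha targets, which handle fatty acids, 16 of 18 were positive, with a median of 0.56 that was 0.16 in the reduced set. Of the 18, 2 did not overlap, against 3.56% of all genes, both higher with LPA. Acadl, an acyl-CoA dehydrogenase of fatty acid oxidation, did not overlap, at 167, 321, 317 and 275 FPKM with vehicle and 345, 436 and 349.7 FPKM with LPA, a log2 difference of 0.52 (SE 0.32). Creb3l3, a transcription factor of lipid metabolism, overlapped, ranging from 188 to 334 FPKM with vehicle and from 284 to 425 FPKM with LPA. Genes of sterol synthesis had a median of 0.29 over 21 (-0.10 in the reduced set), with 0 without overlap. The most abundant were Fdps, Hmgcs1 and Msmo1, which ranged from 52.3 to 218, 88.6 to 138 and 52.4 to 99.8 FPKM with vehicle and from 133 to 218, 130.2 to 148 and 76.1 to 104 FPKM with LPA. Enzymes of xenobiotic metabolism had a median of 0.18 over 24 (-0.51 in the reduced set), and Cyp3a13 and Ces2a did not overlap, 2 of 24 against 3.56% of all genes. The cytochrome P450 gene Cyp3a13 was at 642, 737, 625 and 444 FPKM with vehicle and 828, 1706 and 1220.1 FPKM with LPA, a log2 difference of 0.99. The glutathione transferases Gsta1 and Gsta4 ranged from 201 to 1987 and 72.2 to 317 FPKM with vehicle and from 840.3 to 1282 and 153 to 283 FPKM with LPA.

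Epithelial defense genes other than those of Paneth cells had a median of 0.72 over 22, which was 0.15 in the reduced set. Of the 22, 1 did not overlap, higher with LPA, against 3.56% of all genes. Reg3b, a bactericidal lectin, was at 27587, 6119, 17134 and 26054 FPKM with vehicle and 8599, 14768 and 36423 FPKM with LPA, and its relative Reg3g at 737, 944, 2947 and 4701 FPKM against 1425, 1762 and 2344 FPKM. Pigr, which carries IgA across the epithelium, was at 830.3, 231, 408 and 447 FPKM against 303, 232 and 502 FPKM, so that all 3 overlapped widely. Cxcl16, a chemokine, was at 80.5, 24.0, 14.99 and 16.0 FPKM with vehicle and 34.1, 60.6 and 56.1 FPKM with LPA, and passed in the reduced set (difference 1.69, limma's adjusted p = 0.0434, but adjusted p = 0.361 with control mouse 2 kept). Interferon response genes had a median of 0.43 over 23, 0.63 without LPA mouse 1 and 0.09 in the reduced set, and 0 without overlap. In 10 of the 23 LPA mouse 4 lay above every vehicle library, LPA mouse 5 in 1 and LPA mouse 1 in 0. Over all 15729 genes tested these counts were 2903, 3258 and 3169, so that only LPA mouse 4 exceeded its share of all genes. Isg15, a ubiquitin-like protein, was at 32.3, 15.04, 123 and 127 FPKM with vehicle and 50.2, 350.3 and 101 FPKM with LPA, and Irf7 and Bst2 ranged from 11.3 to 57.7 and 10.7 to 49.0 FPKM with vehicle and from 18.9 to 67.5 and 16.2 to 42.0 FPKM with LPA. Stress response genes had a median of 0.48 over 19 (-0.08 in the reduced set), and Atf5 and Hmox1 did not overlap, 2 of 19 against 3.56% of all genes. The chaperone Hspa5 was at 156, 387, 527 and 569 FPKM with vehicle and 503, 513 and 288 FPKM with LPA, and the transcription factors Atf4 and Xbp1 ranged from 142 to 236 and 67.3 to 148 FPKM with vehicle and from 199.5 to 262 and 131 to 149 FPKM with LPA.

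Further genes that separated the groups were taken in the order of their unadjusted p. Rab24, a small GTPase linked to autophagy, was at 40.3, 46.6, 36.9 and 39.9 FPKM with vehicle and 54.0, 104 and 101 FPKM with LPA, a log2 difference of 1.02 (SE 0.28), and passed in the reduced set (limma's adjusted p = 0.0391, but adjusted p = 0.196 with control mouse 2 kept). Ifitm1, an interferon-induced membrane protein, was at 0, 0.789, 0.333 and 1.56 FPKM with vehicle and 5.14, 3.28 and 3.57 FPKM with LPA, and Ly6c1, a surface protein of leukocytes and endothelium, at 0, 1.10, 0.522 and 0.158 FPKM against 1.45, 3.08 and 5.87 FPKM. Bglap3 and the tubulin gene Tuba1a were higher with LPA as well, with log2 differences of 1.65 and 1.26. Among lower genes, Mgat4c, a glycosyltransferase, was at 5.82, 5.62, 18.3 and 16.5 FPKM with vehicle and 2.27, 4.34 and 3.23 FPKM with LPA, a log2 difference of -1.62 (SE 0.55). Control mice held 0.297, 0.775 and 0.735 FPKM of Mgat4c, below both other groups. Usp2, a deubiquitinase with a daily rhythm, was at 4.77, 9.40, 8.998 and 9.81 FPKM with vehicle and 3.74, 2.42 and 4.75 FPKM with LPA, a log2 difference of -1.16 (SE 0.42). It overlaps Rnf26 on the other strand, and without strand information reads of the pair cannot be told apart. The same limit holds for the reads of Ncstn, Zyx, Irf7, Ccnd1, Erbb2, Ly6g6c and Cd7 with an overlapping gene, and for mt-Nd5 with mt-Nd6. The genes Ly6g6c, Lipt2, Vmo1, Fgd4, Slc25a15 and Sclt1 were lower without overlap, with log2 differences of -1.34, -0.88, -2.13, -0.73, -0.54 and -0.75. Clock genes, of which Usp2 is a known output, had a median of -0.20 over 18 (-0.33 without LPA mouse 1, -0.55 in the reduced set), with 13 negative. Bhlhe40, a repressor in the clock, was at 30.7, 29.8, 29.6 and 28.0 FPKM with vehicle and 39.3, 40.0 and 33.1 FPKM with LPA, and Tef and Per1 ranged from 6.12 to 12.6 and 4.28 to 9.88 FPKM with vehicle and from 6.10 to 8.01 and 4.86 to 7.47 FPKM with LPA.

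**Figure D5:**
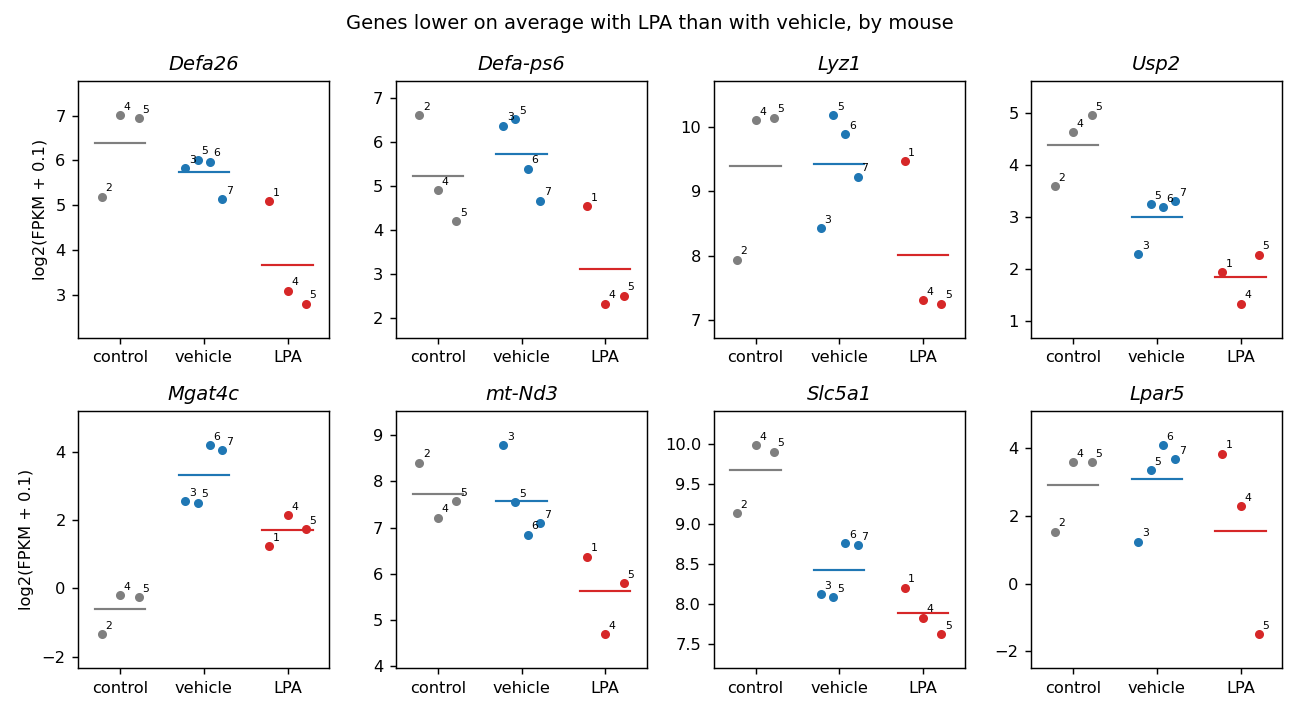
Levels of 8 genes as log2(FPKM + 0.1) on the vertical axis, with 1 numbered point for each mouse and horizontal lines at the group means, in the control (n = 3), vehicle (n = 4) and LPA (n = 3) groups. Every LPA library lies below every vehicle library in Defa26, Defa-ps6, Usp2, Mgat4c and mt-Nd3, while the groups overlap in Lyz1, Slc5a1 and Lpar5.

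The mitochondrial gene mt-Nd3, a subunit of respiratory complex I, was at 439, 186, 115 and 136 FPKM with vehicle and 82.7, 25.9 and 55.4 FPKM with LPA, a log2 difference of -1.94 (SE 0.53). The 13 mitochondrial genes had a median of -0.50, with 11 negative, and -0.04 in the reduced set. Their sum was 192480, 21279, 20890 and 17605 FPKM with vehicle and 20119, 18275 and 37593 FPKM with LPA, with mt-Nd1, mt-Nd5 and mt-Nd6 the most abundant, so that LPA mouse 5 was the highest of the LPA libraries. Ribosomal protein genes had a median of 0.12 over 78 (0.49 in the reduced set) and summed to 110360, 61940, 42623 and 48493 FPKM with vehicle and 50462, 53380 and 102130 FPKM with LPA. Vehicle mouse 3 and LPA mouse 5 were the highest of their groups in both sums, with Rpl41, Rps12 and Rps27 the most abundant of the ribosomal protein genes.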

How the data were processed

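RNA of jejunal epithelial cells was isolated mechanically in cold buffer, poly-A selected and sequenced. Per the labels and their processing notes, the authors used STAR 2.5, TopHat, HTSeq 0.6.1 and DESeq2 with the build GRCm38 (mm10), and deposited FPKM per gene and library, and read counts in a second table of their own comparison. The strand setting is not given in the sources used here. The fold changes, p-values and group means of that comparison, and its pathway tables, were not used. Reads recovered from FPKM and gene length came out whole, within 0.1, for 100% of values, and equalled 63 of 63 deposited counts. limma 3.58.1 (R 4.3.3) was fitted to log2(FPKM + 0.1) of the 3 groups in 1 model, two-sided, for genes averaging 0.1 FPKM or more, with Benjamini-Hochberg adjustment at 0.05. The recovered reads were tested with edgeR 4.0.16 (quasi-likelihood test) and DESeq2 1.42.0, and scripts were tested on simulated data. The members, gene lists and tests were chosen with earlier results of these data known. Named were the 15 genes in each direction without overlap, with a mean of at least 1 FPKM, in the order of unadjusted p and leaving out symbols of the Gm and Rik forms, the 3 most abundant members of each list, Myo5b, the LPA receptors, Enpp2, Slc5a1, Slc9a3, sex-linked genes and the tuft cell genes of the study. Genes passing in the reduced set, DESeq2's calls and other list members without overlap were named after their values were seen. Libraries were also left out in turn, and scaling, filter and pseudocount varied. The reduced set and the count tests without the 2 libraries with few genes were added after seeing the data. Some genes that these rules name are not reported here.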

Additional observations from a re-analysis of the deposited data

Results flagged for a closer look

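In 89 groups of 4 vehicle values, 14 had 1 library far from the other 3, by Dixon's test at the 95% level. Chance flags about 1 in 20 independent groups, but these groups all share the same 4 libraries. Part of them were genes named because they passed in the reduced set, which leaves out vehicle mouse 3. Others were the measures by which that library had been set apart. The number of flags can therefore not be set against the rate of chance. The library was vehicle mouse 3 in 11 of the 14. It detected 12601 genes and had 18.0% of reads on mitochondrial genes, both far from vehicle mice 5, 6 and 7. It was high in Igha at 1021 FPKM, C1qa at 29.2, C1qc at 7.59, Cxcl16 at 80.5, Vamp8 at 235, Hist1h4n at 5.95 and Sparc at 0.715 FPKM. It was low in Cdc20 at 7.64 FPKM and Usp2 at 4.77 FPKM. Vehicle mouse 5 was high in Plat at 10.8 FPKM and Eif4ebp1 at 167 FPKM, and vehicle mouse 7 in Lyz2 at 2.24 FPKM. In Lyz2, Plat, Eif4ebp1, Sparc and Usp2 the library set apart was the vehicle library nearest to the LPA range.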

How the results depend on the processing

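The count of 0 calls held in 23 of 26 alternatives, with a smallest adjusted p by limma of 0.0724 without the 2 libraries with Xist, 0.141 without a filter and 0.182 without LPA mouse 1. The exceptions were DESeq2 with 5 calls, all higher, the reduced set with 197 calls (106 higher, 91 lower) and DESeq2 without control mouse 2 and vehicle mouse 3 with 238 calls (207 higher, 31 lower). edgeR on those same libraries called 0, and the cause of the difference was not tested. The genes whose LPA and vehicle libraries do not overlap, 655 in all, became 370 with a filter of mean 1 FPKM, where fewer genes were tested, 1854 without control mouse 2 and vehicle mouse 3, and 6543 without the 2 libraries with Xist and also in the reduced set, where fewer samples are compared. Leaving out 1 library in turn gave between 655 and 2014, with 2014 without LPA mouse 1, 1854 without vehicle mouse 3, 1401 without vehicle mouse 5, 1339 without LPA mouse 5 and 1062 without vehicle mouse 7 or LPA mouse 4. In leave-one-out fits the difference of Cdc20 ranged from -0.79 to 0.10 (-0.19 over all libraries), turning to 0.05, 0.10 and 0.04 without vehicle mouse 5, LPA mouse 4 and LPA mouse 5. The other 86 of a set of 87 single genes kept their sign in all alternatives run. Part of the set was named because the groups did not overlap, and leaving out libraries cannot turn the sign of such genes. Named genes outside the set did change sign in the reduced set. Among them, Lpar3 went from 0.78 to -0.64, Alpi from 0.20 to -0.84 and Mep1b from 0.41 to -0.40. Of 962 list medians under alternatives 32 moved by more than the spread between replicates, in 12 of 37 lists. No paired analysis was possible because LPA and vehicle mice share only the number 5. The depth limits genes below about 1 FPKM, the conflicting label of LPA mouse 1 and the library of vehicle mouse 3 limit every comparison, and 3 against 4 mice give wide intervals (Lyz2, 95% interval of the log2 difference 1.95 to 3.94).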
